A study of Mus musculus with 30 samples.

Results

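The genes described here encode the subunits of the receptors for glutamate, GABA and glycine. They were taken by gene symbol alone, as every symbol that begins with Gria, Grik, Grid, Grin or Grm and a digit, with Gabr, or with Glra or Glrb. This rule found 38 genes among 14997 in the table of laser-captured floor plate and 50 among 26005 in the table of cultured spheres, and the 38 are all among the 50. Of the 50, 49 encode subunits, and the other one matches by its letters alone. Glra1, the adult glycine receptor alpha subunit, is in neither table and was not analysed here.

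Polyadenylated RNA was measured in 30 mouse libraries. The captured libraries came from the midbrain floor plate, the ventral midline where dopamine neuron progenitors lie, of animals with the genotype Lmx1aCreERT2; R26TRAPC, with 4 libraries at embryonic day 11 (E11), 5 at E13, 5 at E18 and 6 at postnatal day 70 (P70). All 4 ages carry both alleles, and the recombinase is driven by Lmx1a, a floor plate gene that roof plate and cortical hem cells also use. The spheres were grown in vitro from adult brain, with 5 libraries named MB and 5 named FB, whose genotype the labels do not give. The design text speaks of ependymal spheres from the aqueduct of the midbrain and neurospheres from the lateral ventricle, and it does not spell out MB and FB. Whether the libraries of a group stem from different animals or cultures is not stated, so the p-values below cover the spread between these libraries, and captures that share an animal would make them too small.

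Ionotropic glutamate receptors are cation channels built of subunits of the AMPA, kainate and NMDA families, and the delta family is related in sequence but acts mainly as a link across synapses. Metabotropic glutamate receptors signal through G proteins. GABA-A receptors are chloride channels that usually join alpha, beta and gamma subunits, and glycine receptors are chloride channels of alpha subunits with or without the beta subunit. Neurons carry most of these receptors at synapses, while progenitors, astrocytes and oligodendrocyte precursors also carry some of them, and GABA depolarizes many immature cells.

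The number of subunit genes with a measurable level in the captured floor plate was 8 for E11, 22 for E13, 35 for E18 and 27 for P70, so it grew over the 3 embryonic ages. The deposited table lists a gene at an age where its mean level there reaches 1 unit, so an unlisted gene is one under that level and not one shown to be absent. Over all genes of the table, 12221 were listed for E11, 12381 for E13, 13340 for E18 and 13291 for P70. Between E13 and E11, 14 members were listed at E13 alone and 0 at E11 alone, against 814 and 654 of all genes. Between E18 and E13, 13 were listed only at E18 and 0 only at E13, against 1543 and 584 of all genes. At the last step the members went the other way. Between P70 and E18, 3 were listed only at P70 and 11 only at E18, against 938 and 987 of all genes.

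Gria2, Gria4, Grik2, Grik5 and Glrb were among the members listed at all 4 ages, so E11 already had AMPA, kainate and glycine receptor subunits above the listing level, and no NMDA subunit. Metabotropic glutamate receptors were listed mainly at E18. Of 8 such genes, 1 was listed for E11, 2 for E13, 7 for E18 and 1 for P70. Grm4, Grm5, Grm7 and Grm8 were listed at E18 alone, and Grm6 at no age. Gabra6, known from cerebellar granule cells, was listed at no age. The 3 members listed at P70 alone were Gabrd, Gabre and Gabrg3. Gabrd, the delta subunit of receptors outside synapses, was listed there through 1 library with 7.92 units, while the other 5 libraries held 0.

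**Figure D1:**
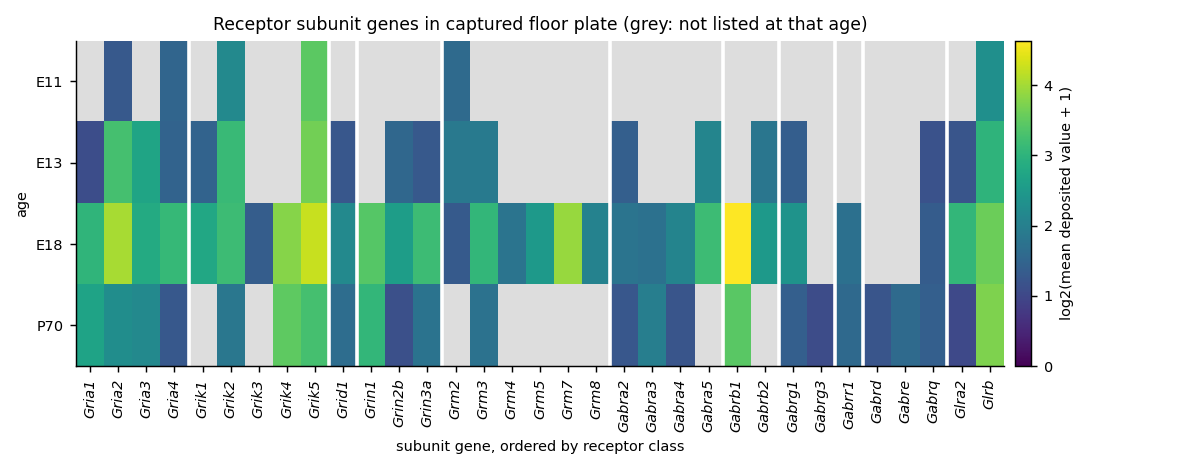
Mean deposited value of 33 subunit genes (columns, ordered by receptor class, white lines between classes) at the 4 ages (rows), as log2(mean + 1), with grey for an age at which a gene is not listed. The row for E11 has 6 coloured cells, E13 has 19, E18 has 30 and P70 has 24.

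Levels are given in the units of the deposited table, which behave like reads per transcript length and library depth. Differences are log2 differences of value + 1 from limma, with their standard error (SE), and an adjusted p under 0.05 (Benjamini-Hochberg over all genes listed at both ages) is counted as passing. A value + 1 scale understates the change of low genes. In E13 against E11, 8 members could be tested, and 3 rose and 0 fell, where 9.44% of all 11567 genes tested rose and 11.5% fell. In E18 against E13, 11 of 22 tested members rose and 0 fell, where 22.4% of 11797 genes rose and 25.0% fell. In P70 against E18, 0 of 24 tested members rose and 12 fell, where 16.9% of 12353 genes rose and 24.0% fell. At an unadjusted p under 0.05 in the same limma fits, still 0 members fell in E13 and in E18 and 0 rose in P70. The median log2 difference of the tested members was 0.71, 0.97 and -0.95 for the 3 steps in order of age, and that of all genes tested was -0.04, -0.04 and -0.14, so P70 values lie lower overall by 0.14 and every fall below is larger than that. The E13 libraries enter the earlier and the middle comparison and the E18 libraries the middle and the last, so these comparisons are not independent of each other.

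Markers of other cells moved over the same ages. The summed level of 12 neuron markers ran between 296 and 877 for E11, 984 and 2976 for E13, 869 and 2097 for E18, and 312 and 744 for P70, with Nefh not listed at E11 and E13. The neuron sum was thus higher at E13 than at E11 and lower at P70 than at E18 in every library, and overlapped between E18 and E13. Single neuron markers did not all follow that sum. In E18 against E13, 4 of 11 tested rose, all genes of synaptic vesicles or their release, with log2 differences of 2.71 (SE 0.36, adjusted p = 2.45e-06) for Syp, 2.37 (SE 0.39, adjusted p = 3.03e-05) for Syt1, 2.19 (SE 0.43, adjusted p = 0.000267) for Syn1 and 1.72 (SE 0.45, adjusted p = 0.00342) for Snap25. The early neuron marker Tubb3 fell by 0.89 (SE 0.26, adjusted p = 0.00715). In P70 against E18, 6 of 12 fell, Tubb3, Rbfox3 and Map2 among them, while those 4 genes did not pass, with differences of 0.08, 0.12, -0.33 and 0.61 in the same order. The 4 genes are named because they rose in E18, so their course does not describe neuron markers as a whole. In E13 against E11, 5 of 11 tested neuron markers rose, Syt1 among them, and 0 fell. Of all genes tested, 9.44% rose and 11.5% fell at that step.

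The sum of 8 ependymal markers ran between 21.2 and 47.0 for E11, 40.8 and 82.7 for E13, 6379 and 9216 for E18, and 16127 and 26356 for P70, with Tmem212 and Ccdc153 not listed at E11 and E13. Of 8 astrocyte markers, 4 were listed at E11 and at E13 and all 8 later, with sums between 13.6 and 18.7 for E11, 76.3 and 178 for E13, 257 and 396 for E18, and 1125 and 1320 for P70. Astrocyte and ependymal sums were highest at P70, unlike the neuron sum. Single astrocyte markers did not all follow their sum. In P70 against E18, 5 of 8 rose and 1 fell. The one that fell was Aldh1l1, by 2.87 (SE 0.29, adjusted p = 1.13e-07), with 10.7 ± 7.74 units at P70 and 74.4 ± 12.8 at E18. The 6 oligodendrocyte precursor markers were all listed at E18, with sums of 43.3 to 67.0, while 0 of 6 were listed at E13 and 4 at P70, with sums of 11.1 to 48.6. All 8 floor plate markers were listed at the 3 embryonic ages, and 6 at P70, where Shh and Corin were not, and their sum ran between 584 and 684 for E11, 572 and 672 for E13, 422 and 614 for E18, and 124 and 176 for P70. The sum hides opposite changes in E18 against E13, where 1 of the 8 rose and 4 fell, Lmx1a and Shh among them. The sum of 7 neural stem and radial glia markers ran between 1889 and 1933 for E11, 7298 and 14371 for E13, 4168 and 5104 for E18, and 1058 and 1555 for P70. Both sums were lower at P70 than at E18 in every library, and the stem and radial glia sum was also lower at E18 than at E13 and higher at E13 than at E11. That sum does not describe each of its genes. In E13 against E11, 2 of the 7 stem and radial glia markers rose and 1 fell, with a median log2 difference of 0.20. In E18 against E13, 1 rose and 4 fell, and in P70 against E18, 0 rose and 2 fell. The part of these markers in the receptor levels was not tested, and in such bulk captures fewer cells of a type and less RNA per cell cannot be told apart.

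Among AMPA receptor subunits, which carry fast excitatory transmission, Gria2 is the one whose RNA-edited form keeps calcium out of the channel. Gria2 (chr3:80681450-80802835, minus strand, GRCm38) held 0.320, 0.812, 1.36 and 3.28 units in the E11 libraries, 10.6, 20.2, 7.0, 2.62 and 2.57 at E13, 7.97, 12.4, 15.5, 10.8 and 29.9 at E18, and 2.10 to 5.36 with a median of 3.70 at P70. It rose by 1.78 (SE 0.46, adjusted p = 0.00781) in E13 over E11, where E13 replicates 4 and 5 overlapped the highest E11 library, and its difference of 0.97 (SE 0.43, adjusted p = 0.0712) between E18 and E13 did not pass. In P70 it fell by 1.67 (SE 0.42, adjusted p = 0.00285) relative to E18, with no overlap between the libraries of both ages.

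Gria1 and Gria4 rose at E18. Gria1, the main subunit of receptors added during plasticity in mature neurons, was not listed at E11 and held 1.78, 1.97, 1.48, 0.287 and 0.202 units at E13, 7.17, 5.76, 8.58, 4.91 and 9.23 at E18, and 3.17 to 10.03 with a median of 4.41 at P70. It rose by 2.0 (SE 0.31, adjusted p = 3.6e-05) in E18 over E13 without overlap, while its difference of -0.39 (SE 0.30, adjusted p = 0.324) in P70 did not pass. Gria4, a subunit of fast-gating receptors, held 1.61, 1.39, 2.46 and 1.93 units at E11, 2.60, 2.74, 1.84, 0.644 and 1.12 at E13, 3.6, 8.46, 7.04, 6.74 and 11.9 at E18, and 0.742 to 2.59 with a median of 1.26 at P70. It was high at E18 alone, rising by 1.61 (SE 0.29, adjusted p = 0.000102) over E13 and falling by 1.78 (SE 0.28, adjusted p = 4.1e-05) in P70, both without overlap. Gria3 passed in no comparison, with 5.50 ± 5.72 units at E13, 6.12 ± 1.92 at E18 and 3.51 ± 3.24 at P70 (SD, n = 5, 5 and 6). At P70, Gria3 held 6.29 and 8.73 units in replicates 3 and 6 and 0.836 to 2.16 in the others. Gria1, Gria2 and Gria4 did not split this way. The neuron marker sum was 704 and 744 in P70 replicates 3 and 6, and 312 to 472 in the others. The part of this in the Gria3 values was not tested.

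The ratios among the AMPA subunits differed between ages. As a share of the summed level of all 4 subunits, Gria1 averaged 6.73% ± 2.89 at E13, 21.0% ± 6.09 at E18 and 38.9% ± 7.41 at P70 (SD, n = 5, 5 and 6). Gria2 averaged 50.7% ± 3.95 for E13, 40.7% ± 5.76 for E18 and 28.4% ± 6.73 for P70. The log2 ratio of Gria2 to Gria1, with 1 added to each value, was -0.38 ± 0.33 at P70 and 0.90 ± 0.52 at E18, a difference of -1.28 (exact two-sided permutation test, p = 0.00433, adjusted p = 0.0238 over 18 ratio tests). For E18 against E13 that difference was -1.03 (exact p = 0.0238, adjusted p = 0.0536) and did not pass. The log2 ratio of Gria4 to Gria2 was -1.52 ± 0.66 at E13 and 0.35 ± 0.65 at E11, a difference of -1.86 (exact p = 0.00794, the smallest this design allows, adjusted p = 0.0238). Leaving out any 1 of the 9 libraries raised that smallest p and ended this call, at adjusted p of at most 0.0713.

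**Figure D2:**
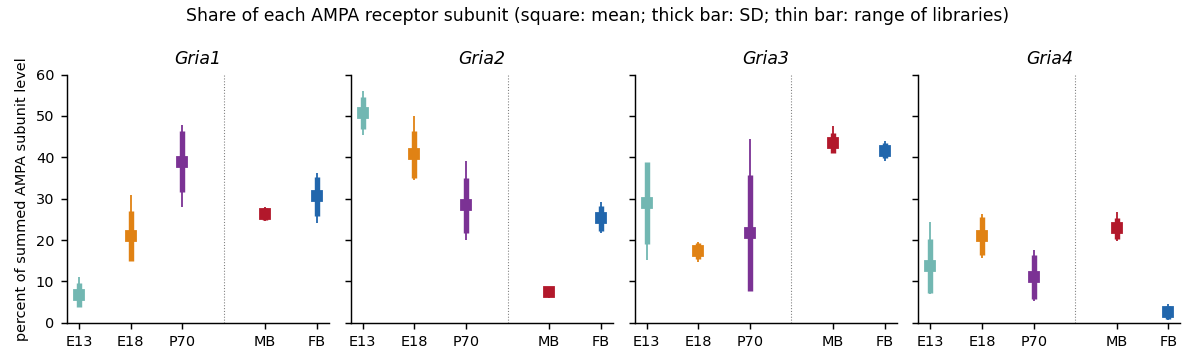
Share of each AMPA receptor subunit (panels) in the summed level of the 4, in percent, for captured E13, E18 and P70 floor plate and for MB and FB spheres, which were measured apart (dotted line); squares are means, thick bars SD and thin bars the range of libraries. The Gria1 mean is 6.73% at E13 and 38.9% at P70, and the Gria2 mean is 7.39% in MB and 25.2% in FB spheres. Sphere shares use CPM per kilobase of exon and captured shares the deposited values, so share levels cannot be compared across the dotted line.

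A kainate receptor gene was the most abundant member early. Grik5, an accessory subunit that raises agonist affinity and forms no channel by itself, had the highest mean of all members at E11 and E13. It held 9.19, 8.74, 9.07 and 13.1 units at E11, 11.9, 14.3, 7.87, 13.2 and 10.3 at E13, 15.5, 19.2, 19.9, 13.9 and 20.8 at E18, and 6.01 to 12.004 with a median of 8.38 at P70. It rose by 0.60 (SE 0.20, adjusted p = 0.0167) in E18 over E13, a call lost without E13 replicate 3 (highest adjusted p over the alternatives 0.0615), and fell by 0.98 (SE 0.19, adjusted p = 0.000315) in P70 without overlap.

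Grik2, a subunit that can form the channel pore, rose at E13. It held 3.08, 3.0, 3.56 and 4.57 units at E11, 8.10, 9.07, 8.66, 5.83 and 7.20 at E13, 7.25, 6.80, 8.49, 7.66 and 10.1 at E18, and 1.65 to 3.44 with a median of 2.46 at P70. The rise in E13 was 0.95 (SE 0.20, adjusted p = 0.00218) and the fall in P70 was 1.35 (SE 0.19, adjusted p = 9e-06), both without overlap, while E18 and E13 differed by 0.05 (SE 0.20, adjusted p = 0.863). The log2 ratio of Grik2 to Grik5 was -0.50 ± 0.42 at E13 and -1.27 ± 0.09 at E11, a difference of 0.77 (exact permutation p = 0.0159, adjusted p = 0.0409), a call that also ended without any 1 of the 9 libraries, at adjusted p of at most 0.0714. Grik1, another pore-forming subunit, held 2.41, 4.70, 12.4, 3.90 and 5.97 units at E18 against 1.68, 3.76, 1.32, 1.51 and 0.581 at E13, and rose by 1.25 (SE 0.38, adjusted p = 0.0135) although the groups overlapped. Grik4, the other high-affinity accessory subunit, was listed from E18, with 10.1 ± 4.92 units at P70 and 12.8 ± 6.87 at E18, a difference of -0.27 (SE 0.35, adjusted p = 0.576). Of the delta receptor genes, Grid1 was listed from E13 and passed in no comparison.

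NMDA receptors need Grin1 with a glutamate-binding Grin2 or a glycine-binding Grin3 subunit. Grin1 was listed only from E18 and averaged 7.36 ± 4.02 units at P70 and 9.56 ± 2.46 at E18, a difference of -0.44 (SE 0.31, adjusted p = 0.279). Grin2b, the Grin2 subunit of immature brain, held 2.83, 3.89, 1.336, 0.557 and 1.00 units at E13, 5.66, 4.68, 2.49, 4.16 and 7.97 at E18, and 0.611 to 2.05 with a median of 0.986 at P70. It rose by 1.10 (SE 0.33, adjusted p = 0.0106) in E18 with overlap and fell by 1.44 (SE 0.33, adjusted p = 0.00171) in P70 without it. Grin2a, its counterpart in mature brain, was not listed at P70 or at any other age, nor were Grin2c, Grin2d and Grin3b.

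Grin3a, which lowers the calcium flow of NMDA receptors, had a clear E18 peak. It held 3.01, 2.46, 1.38, 0.192 and 0.203 units at E13, 6.39, 9.51, 12.5, 4.39 and 7.50 at E18, and 1.63 to 3.10 with a median of 2.46 at P70. The rise was 2.0 (SE 0.34, adjusted p = 8.8e-05) and the fall 1.37 (SE 0.33, adjusted p = 0.0029), both without overlap. Grin3a, Gria1 and Gria2 had their lowest E13 values in replicates 4 and 5, where the neuron marker sum was 1113 and 984, against 1675 to 2976 in the other 3 E13 libraries; the part of this in the E13 values was not tested.

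Metabotropic glutamate receptors of group I couple to Gq and those of groups II and III to Gi. Grm3, a group II receptor known from astrocytes, held 3.14, 1.82, 4.19, 1.87 and 2.79 units at E13, 8.46, 5.78, 10.7, 4.81 and 7.24 at E18, and 0.235 to 4.16 with a median of 2.26 at P70. It rose by 1.15 (SE 0.34, adjusted p = 0.00908) in E18 and fell by 1.44 (SE 0.33, adjusted p = 0.00188) in P70, and its E18 libraries overlapped neither age. Grm2, the other group II receptor, was listed from E11 to E18 at means of 2.03, 2.64 and 1.48 units and did not pass. Grm7, a group III receptor of presynaptic terminals, held 12.5, 14.2, 12.3, 15.4 and 15.8 units at E18, among the 5 highest means of that age, and was listed at no other. Grm5, of group I, held 3.01, 5.25, 5.14, 2.86 and 6.70 units at E18.

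Among GABA-A receptor genes, Gabrb1 and Gabrg1 fell in P70, and Gabrg1 and Gabra5 rose in E18. Gabrb1 had the highest mean of all members at E18 and a wide spread, with 49.5, 16.9, 20.1, 8.90 and 23.5 units, and at P70 it held 7.23 to 15.4 with a median of 8.66. It was 1.03 lower (SE 0.33, adjusted p = 0.0225) in P70, with overlap, and the call was lost without E18 replicate 1, without E18 replicate 5 and with library weights, at adjusted p of at most 0.0579. Gabrb2, the beta subunit of most adult receptors, was listed at E13 and E18 and not at P70, with 4.58 ± 1.87 units at E18 and 2.53 ± 0.95 at E13.

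Gabrg1, a gamma subunit that astrocytes and glial precursors also express, held 4.59, 2.32, 3.45, 6.0 and 4.67 units at E18 against 2.0, 1.35, 1.94, 1.23 and 1.58 at E13, and rose by 0.96 (SE 0.33, adjusted p = 0.0222) without overlap. That call was lost without E18 replicate 4 and with a pseudocount of 0.1, at adjusted p of at most 0.155. In P70 it fell by 1.08 (SE 0.32, adjusted p = 0.0121), with 0 to 3.21 units, a median of 1.58 and overlap with E18. Gabra5, an alpha subunit of receptors outside synapses, held 4.23, 7.83, 13.3, 5.99 and 8.64 units at E18 against 4.09, 3.16, 3.38, 4.76 and 1.13 at E13, rose by 1.06 (SE 0.32, adjusted p = 0.0149), and was not listed at P70.

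Gabra2, Gabra3 and Gabra4, also alpha subunits, did not pass in P70 against E18, and their libraries overlapped. Gabra2 averaged 1.40 ± 1.11 units at P70 and 2.43 ± 0.73 at E18, a difference of -0.62 (SE 0.32, adjusted p = 0.134). Gabra3 averaged 2.93 ± 2.301 units at P70 and 2.31 ± 1.33 at E18, and Gabra4 1.337 ± 1.24 at P70 and 3.28 ± 2.15 at E18 (SD, n = 6 and 5). Their adjusted p from limma was 0.807 and 0.156. At P70, Gabra3 held 5.50 and 6.14 units in replicates 3 and 6 and 0.973 to 2.37 in the others. Gabra4 went the other way, with 0.699 and 0 units in those replicates.

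Of the glycine receptor genes, the alpha subunit rose and fell and the beta subunit passed at no step. Glra2, the alpha subunit of the embryonic receptor, held 1.23, 3.47, 0.948, 0.179 and 0.758 units at E13, 3.51, 6.38, 8.07, 8.38 and 10.4 at E18, and 0 to 2.46 with a median of 0.999 at P70, where 2 of 6 libraries held 0. It rose by 1.93 (SE 0.40, adjusted p = 0.000563) and then fell by 2.13 (SE 0.39, adjusted p = 0.000258), the largest member fall of that step, both without overlap. These levels rest on few reads: counted back from the steps between low values, Glra2 had 2 to 56 reads in an E13 library, 36 to 120 in one of E18 and 0 to 16 in one of P70. Glrb, the beta subunit that anchors the receptor to gephyrin, held 7.91 to 17.0 units at P70 with a median of 12.3. At E18 it held 6.81, 9.64, 16.8, 9.999 and 11.8, a difference of 0.14 (SE 0.27, adjusted p = 0.709) in P70 against E18. Glrb had the highest mean of all members at P70. Its mean was 3.93 units at E11, 7.07 at E13 and 11.0 at E18. The earlier differences were 0.665 (SE 0.302, adjusted p = 0.126) in E13 over E11 and 0.605 (SE 0.285, adjusted p = 0.086) in E18 over E13. Its libraries at E11, with 2.60 to 5.50 units, lay under those at E18, and these ages were not tested against each other.

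**Figure D3:**
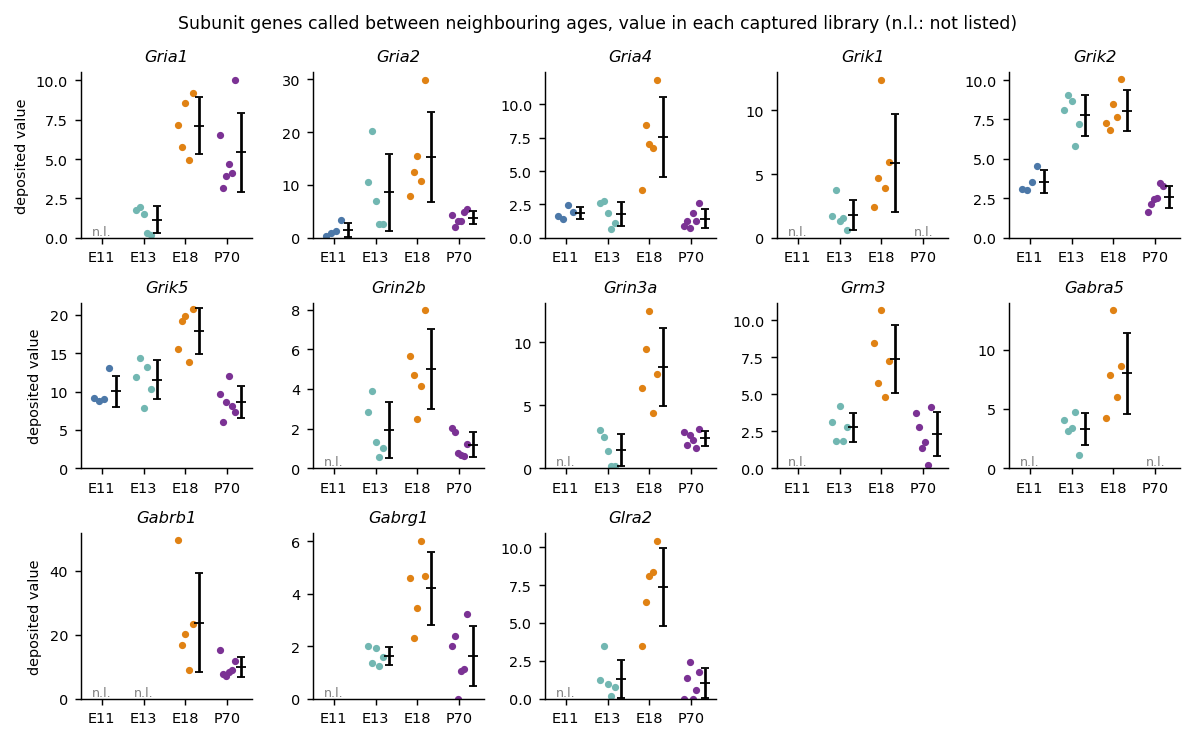
Deposited value in each captured library (points) for 13 subunit genes that passed in a comparison of neighbouring ages, with the mean and SD beside the points (black) and n.l. where a gene is not listed at that age. In the panels of Gria4, Grin3a, Grm3 and Glra2 every E18 point stands above those of E13 and P70. Gria4 holds 3.6 to 11.9 units at E18. In the other panels E18 points overlap those of E13 or P70, and Grik2 already stands above E11 at E13.

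Genes that serve these receptors were taken from 6 lists of 61 genes in all. In E13 against E11, 7 of 33 tested rose and 2 fell, where 9.44% of all genes tested rose and 11.5% fell. In E18 against E13, 24 of 42 rose and 3 fell, where 22.4% of all genes rose and 25.0% fell. In P70 against E18, 3 of 47 rose and 17 fell, where 16.9% of all genes rose and 24.0% fell. Of the auxiliary subunits, 8 of 10 tested rose in E18. Cnih2, which slows AMPA receptor closing, averaged 201 ± 50.2 units at E18 and 40.4 ± 15.9 at E13, a rise of 2.33 (SE 0.26, adjusted p = 2.31e-07), and 22.0 ± 7.69 at P70, a fall of 3.16 (SE 0.25, adjusted p = 3.67e-09) relative to E18. Gabbr1, of the metabotropic GABA-B receptor, averaged 70.5 ± 11.7 units at E18 and 15.4 ± 8.80 at E13, a rise of 2.27 (SE 0.26, adjusted p = 2.92e-07), and fell by 1.36 (SE 0.25, adjusted p = 0.000161) in P70 to 26.9 ± 4.97 units. Slc12a5, the neuronal chloride exporter, rose by 2.25 (SE 0.37, adjusted p = 3.31e-05) in E18, to 11.3 ± 4.08 units against 1.47 ± 0.30 at E13, and its P70 difference of -0.81 (SE 0.36, adjusted p = 0.076) did not pass. The glycine transporter gene Slc6a9 went the other way at the last step, with 48.0 ± 15.5 units at P70 and 23.5 ± 7.63 at E18, a rise of 0.99 (SE 0.28, adjusted p = 0.00722).

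In the cultured spheres, levels are counts scaled to library size after TMM (CPM) and differences are log2 fold changes from edgeR's quasi-likelihood test, with an SE derived from the fold change and its F statistic. The libraries held 6327198 to 9291311 counts each. Of the 50 members, 24 passed the filter on low counts, and 26 were too low to test. In MB against FB spheres 11 members were higher and 2 lower, where 15.3% of 12886 genes were higher and 14.3% lower. A gene can pass that filter through 1 group, so the count over tested members is a description. The median log2 fold change was 0.34 for the tested members and -0.01 for all genes tested.

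Only a few subunits were abundant in spheres. Per kilobase of exon, the highest means in MB were those of Grm5 with 18.5 ± 1.77 CPM, Gria3 with 11.98 ± 0.98 and Gabrg1 with 11.2 ± 0.56, and in FB those of Grm3 with 14.7 ± 3.38, Grm5 with 13.5 ± 1.30 and Gria3 with 9.16 ± 1.24 (SD, n = 5 each). The sum over 6 oligodendrocyte precursor markers was high in both kinds of sphere, at 2695 to 3355 CPM in MB and 2977 to 3314 in FB. That sum does not describe each of its genes. Cspg4 averaged 36.2 ± 7.56 CPM in MB and 24.1 ± 3.84 in FB. Lhfpl3 averaged 35.0 ± 3.79 CPM in MB and 14.6 ± 4.43 in FB. Of the 6 precursor markers tested, 3 were higher in MB and 0 lower. Neuron markers had sums over 12 genes of 457 to 537 CPM in MB and 401 to 451 in FB, and the defining marker Rbfox3 had at most 0.788 CPM in MB and 0.218 in FB. The higher MB sum rests on Map2, with 465 ± 27.5 CPM in MB and 357 ± 17.8 in FB, while 4 of the 8 tested neuron markers were lower in MB. The sum of mature oligodendrocyte markers was lower in MB, and those of astrocyte and ependymal markers were higher. The 6 oligodendrocyte markers summed to 280 to 348 CPM in MB and 799 to 922 in FB, the 8 astrocyte markers to 2277 to 2504 in MB and 1995 to 2115 in FB, and the 8 ependymal markers to 33.1 to 46.5 in MB and 19.6 to 25.1 in FB. Of 7 astrocyte markers tested, 5 were higher in MB and 2 lower, the lower ones being Gfap, with 52.6 ± 6.71 CPM in MB and 133 ± 13.3 in FB, and Aldh1l1, with 646 ± 48.0 in MB and 948 ± 51.8 in FB. Of 7 neural stem and radial glia markers, 6 were lower in MB, with a sum of 3956 to 4402 CPM in MB and 6114 to 6461 in FB. Their part in the differences below was not tested. Of 6 forebrain genes, the sum was 0.352 to 1.73 CPM in MB and 31.7 to 57.4 in FB, with Dlx1 and Dlx2 at 0 in every MB library.

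**Figure D4:**
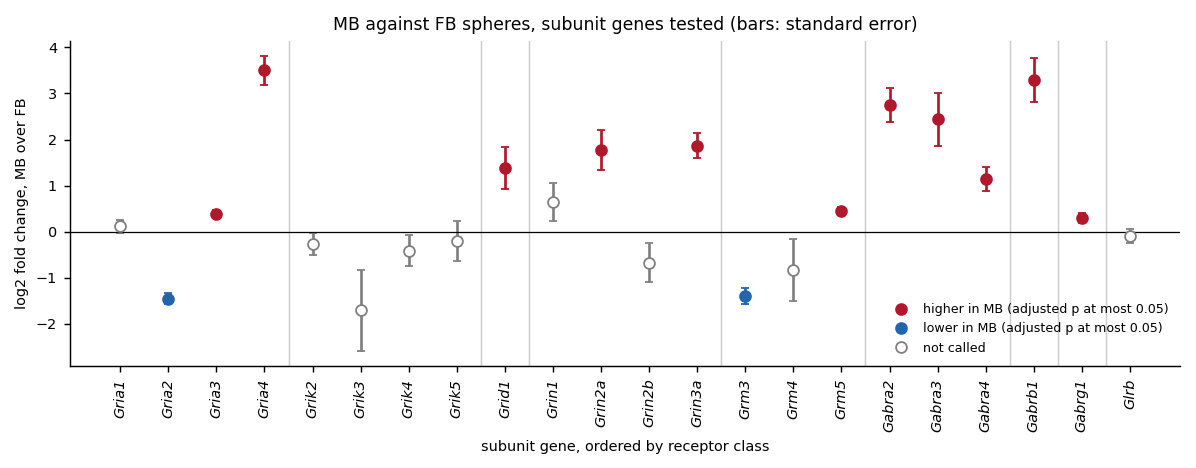
Log2 fold change of MB over FB spheres (points) with SE (bars) for 22 of the 24 subunit genes tested, ordered by receptor class with grey lines between classes; filled red is higher in MB, filled blue lower in MB and open grey not called. Gria4 at 3.51 and Gabrb1 at 3.29 are highest, and Gria2 at -1.45 and Grm3 at -1.40 are the called genes below 0.

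Gria4 and Gria2 differed in opposite directions. Gria4 had 30.5, 36.6, 37.5, 52.8 and 43.3 CPM in MB against 1.96, 3.95, 6.65, 1.08 and 3.69 in FB, a log2 fold change of 3.51 (SE 0.32, adjusted p = 5.13e-08). Gria2 had 30.5, 32.9, 28.8, 29.3 and 36.2 CPM in MB against 94.2, 66.7, 97.3, 92.7 and 79.6 in FB, a log2 fold change of -1.45 (SE 0.12, adjusted p = 1.59e-08). For both genes the ranges lay far apart, and the Gria4 calls rest on 212 to 335 counts per library in MB and 9 to 61 in FB. Gria3 was higher by 0.39 (SE 0.10, adjusted p = 0.00415), with 115, 106, 113, 130 and 126 CPM in MB and 85.2, 76.3, 99.1, 107 and 84.4 in FB, whose highest library overlapped MB. Gria1 averaged 44.0 ± 5.56 CPM in MB and 40.6 ± 7.24 in FB and did not pass (log2 fold change 0.12, SE 0.14, adjusted p = 0.564).

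As shares of the summed AMPA level per kilobase, Gria2 made up 7.39% ± 0.89 in MB and 25.2% ± 3.01 in FB, and Gria4 22.8% ± 2.57 in MB and 2.55% ± 1.53 in FB. The level of a share depends on the exon length used, here 15548 bases for Gria2, 6043 for Gria1, 9859 for Gria3 and 6305 for Gria4. The log2 ratio of Gria4 to Gria2 counts was 0.33 ± 0.32 in MB and -4.81 ± 1.04 in FB, a difference of 5.13, and that of Gria2 to Gria1 was -0.48 ± 0.17 in MB and 1.09 ± 0.39 in FB, a difference of -1.56. Both passed with an exact permutation p = 0.00794, the smallest possible with 5 against 5 libraries, and an adjusted p = 0.0238 over the 18 ratio tests.

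NMDA and delta receptor genes were higher in MB where they passed. Grin3a had 25.5, 38.3, 39.9, 40.1 and 33.1 CPM in MB against 3.01, 11.97, 9.81, 13.2 and 10.1 in FB, a log2 fold change of 1.87 (SE 0.26, adjusted p = 1.85e-05). Grin2a had 6.33, 2.51, 9.26, 5.83 and 6.78 CPM in MB against 1.2, 1.71, 1.53, 1.44 and 3.07 in FB, with overlap (log2 fold change 1.77, SE 0.43, adjusted p = 0.00385). The log2 ratio of Grin2a to Grin2b was 0.97 ± 0.70 in MB and -1.24 ± 0.54 in FB, a difference of 2.21 (exact permutation p = 0.00794, adjusted p = 0.0238), and both genes lay under 10 CPM in every library. Grin1, the subunit every NMDA receptor needs, averaged 6.77 ± 1.26 CPM in MB and 4.33 ± 2.86 in FB and did not pass (adjusted p = 0.254). Grid1 was higher in MB by 1.39 (SE 0.45, adjusted p = 0.0249), with 6.47, 11.3, 6.68, 5.20 and 8.08 CPM in MB against 3.01, 0.395, 4.80, 2.16 and 3.94 in FB, and this call was lost without MB replicate 2 or without FB replicate 4, at adjusted p of at most 0.0804.

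Both glial metabotropic receptors passed, in opposite directions. Grm5 had 174, 166, 204, 201 and 203 CPM in MB against 145, 151, 117, 135 and 143 in FB, a log2 fold change of 0.46 (SE 0.08, adjusted p = 0.000279). Grm3 had 18.8, 18.2, 13.8, 20.3 and 14.1 CPM in MB against 55.1, 48.1, 53.5, 34.1 and 33.9 in FB, a log2 fold change of -1.40 (SE 0.18, adjusted p = 5.22e-06). Neither gene overlapped between MB and FB, and their log2 ratio was 3.48 ± 0.35 in MB and 1.64 ± 0.40 in FB (difference 1.83, exact permutation p = 0.00794, adjusted p = 0.0238).

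Of the GABA-A subunit genes, 5 were higher in MB, where 15.3% of all genes tested were higher. They were all 3 alpha subunits tested, 1 of 2 beta subunits tested and the 1 gamma subunit tested. The other beta subunit had a negative log2 fold change and no call, and the remaining GABA-A genes were too low to test. Gabra2 had 25.3, 21.3, 20.4, 15.0 and 28.9 CPM in MB against 3.46, 7.63, 2.07, 2.16 and 1.23 in FB, a log2 fold change of 2.75 (SE 0.36, adjusted p = 8.46e-06). Gabrb1 had 12.1, 15.5, 8.91, 11.7 and 10.04 CPM in MB against 0.752, 0.789, 0.545, 3.36 and 0.369 in FB, a log2 fold change of 3.29 (SE 0.47, adjusted p = 2.31e-05). FB replicate 4 stood above the other FB libraries for Gabrb1 but under every MB library. Gabra4, an alpha subunit that often joins the delta subunit, had 11.7, 10.6, 14.2, 15.3 and 11.5 CPM in MB against 4.97, 8.68, 3.82, 6.12 and 5.04 in FB (log2 fold change 1.14, SE 0.27, adjusted p = 0.00266).

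Gabra3 had 3.16, 3.48, 5.16, 5.52 and 3.0 CPM in MB against 0, 0.921, 0.763, 0.960 and 0.984 in FB, at 22 to 44 counts per library in MB and 0 to 8 in FB (log2 fold change 2.44, SE 0.57, adjusted p = 0.00261). Gabrg1 was the most abundant GABA-A gene and had the smallest log2 fold change of these 5, with 91.9, 93.2, 83.6, 84.4 and 86.6 CPM in MB against 64.3, 65.2, 79.4, 88.7 and 58.8 in FB. Its log2 fold change of 0.30 (SE 0.11, adjusted p = 0.0392) was lost in 7 of the 10 fits that left out 1 library, at adjusted p of at most 0.0969.

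**Figure D5:**
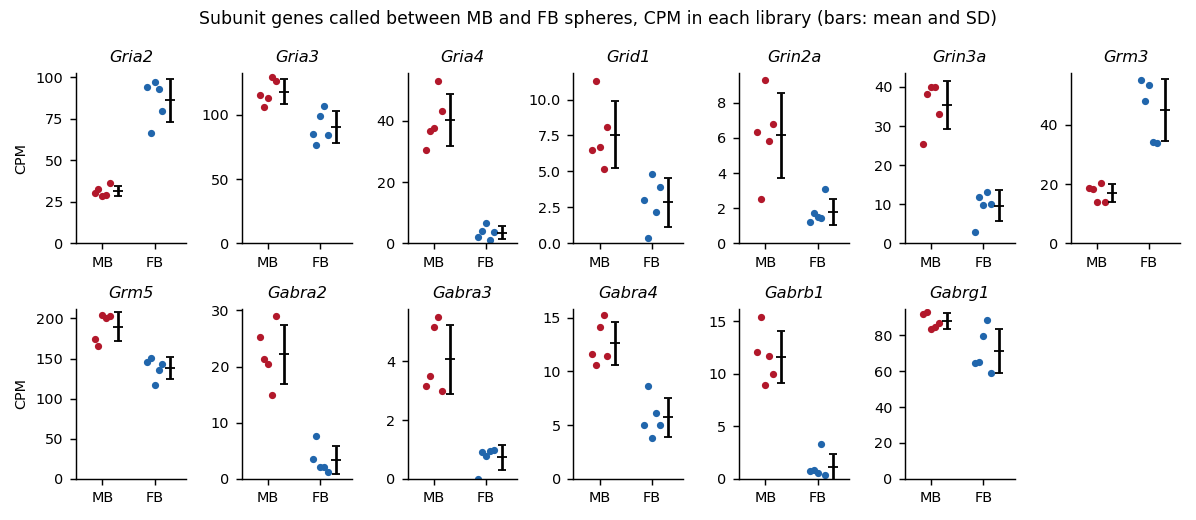
CPM in each MB and FB sphere library (points) for the 13 subunit genes that passed, with mean and SD beside the points. Gria4 lies at 30.5 to 52.8 CPM in MB and at 1.08 to 6.65 in FB, and only Gria3, Grin2a and Gabrg1 overlap between MB and FB. The genes shown were picked by their test on these same libraries, so the lack of overlap is no separate evidence.

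Gabrg1, Gabra2, Gabra4 and Gabrb1 are neighbours on chromosome 5 and span chr5:70751047-72149037 (GRCm38), Gabrb1 on the plus strand and the other 3 on the minus strand. All 4 were tested and higher in MB, where 15.3% of all genes tested were higher. The Gabrg1 call was lost in 7 of the fits that left out 1 library. Among other groups of neighbouring members, the one on chromosome X had 1 gene tested, which was higher. Chromosome 7 had 1 tested and 0 higher, and chromosome 3 had 2 tested, with 0 higher and 1 lower. Those on chromosomes 4 and 11 had 0 tested. Whether position plays a part was not tested. Gabra4 and Gabrb1 start head to head and overlap over 196 bases (chr5:71658113-71658308), where reads of these unstranded libraries cannot be assigned to either gene. Gria2 and Glrb are neighbours on chromosome 3, and Glrb averaged 26.0 ± 2.05 CPM in MB and 27.8 ± 3.86 in FB, with no call (adjusted p = 0.671).

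The windows around the starts of the 4 neighbours and of the AMPA genes that differed in opposite directions are printed so that their letters can be set side by side. They are RefSeq promoter windows of GRCm38.p6, from 250 bases before to 50 bases after a gene's start, on the gene's own strand, and a window was found for 35 of the 50 members. Gria2 is at chr3:80802786-80803085 (minus), Gria4 at chr9:4796185-4796484 (minus), Gabrg1 at chr5:70842568-70842867 (minus), Gabra2 at chr5:71095800-71096099 (minus), Gabra4 at chr5:71658259-71658558 (minus) and Gabrb1, at the more upstream of 2 starts, at chr5:71657671-71657970 (plus). Capitals mark every match, on either strand, to 1 of the motifs named after the sequences.
Gria2: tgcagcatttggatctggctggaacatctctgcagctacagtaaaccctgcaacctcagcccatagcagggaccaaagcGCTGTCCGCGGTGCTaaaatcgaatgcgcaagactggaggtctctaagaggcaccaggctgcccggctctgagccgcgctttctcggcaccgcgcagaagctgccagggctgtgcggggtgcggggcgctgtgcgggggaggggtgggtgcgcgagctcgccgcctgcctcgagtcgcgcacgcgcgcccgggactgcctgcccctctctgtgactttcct
Gria4: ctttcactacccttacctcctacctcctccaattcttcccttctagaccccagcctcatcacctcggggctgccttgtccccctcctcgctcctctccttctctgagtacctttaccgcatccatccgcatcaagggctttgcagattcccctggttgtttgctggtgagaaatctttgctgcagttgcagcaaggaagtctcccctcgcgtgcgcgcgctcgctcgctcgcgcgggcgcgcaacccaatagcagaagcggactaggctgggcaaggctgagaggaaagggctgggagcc
Gabrg1: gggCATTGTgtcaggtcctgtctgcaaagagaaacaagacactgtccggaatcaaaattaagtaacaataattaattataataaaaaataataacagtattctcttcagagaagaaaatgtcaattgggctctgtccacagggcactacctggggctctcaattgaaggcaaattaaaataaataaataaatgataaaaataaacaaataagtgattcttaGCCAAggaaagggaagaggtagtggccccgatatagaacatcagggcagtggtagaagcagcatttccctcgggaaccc
Gabra2: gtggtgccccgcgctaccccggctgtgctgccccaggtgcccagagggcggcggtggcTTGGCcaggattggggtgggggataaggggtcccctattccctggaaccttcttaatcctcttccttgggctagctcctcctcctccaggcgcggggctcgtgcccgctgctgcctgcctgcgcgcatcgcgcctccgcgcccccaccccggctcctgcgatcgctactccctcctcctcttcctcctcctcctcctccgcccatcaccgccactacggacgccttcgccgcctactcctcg
Gabra4: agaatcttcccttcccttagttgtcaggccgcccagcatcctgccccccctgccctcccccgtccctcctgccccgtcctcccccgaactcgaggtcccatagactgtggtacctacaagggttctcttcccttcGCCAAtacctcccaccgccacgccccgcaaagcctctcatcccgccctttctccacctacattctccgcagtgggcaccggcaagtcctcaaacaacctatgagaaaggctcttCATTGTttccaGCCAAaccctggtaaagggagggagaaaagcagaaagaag
Gabrb1: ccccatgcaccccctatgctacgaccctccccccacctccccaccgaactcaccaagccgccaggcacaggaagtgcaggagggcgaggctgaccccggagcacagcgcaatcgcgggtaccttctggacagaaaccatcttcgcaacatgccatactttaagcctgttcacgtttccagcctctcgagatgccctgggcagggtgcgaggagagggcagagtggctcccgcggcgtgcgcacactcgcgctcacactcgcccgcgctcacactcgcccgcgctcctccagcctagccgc

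In capitals are matches to the repressor element RE1, searched as AGCACC, 2 free bases and GGACAGC, to the nuclear factor I half-site TTGGC, and to the SOX motifs ACAAAG and ACAATG. The full nuclear factor I palindrome, TTGGC, 5 free bases and GCCAA, holds the half-site within it. Gria2 holds the RE1 letters on the strand opposite to the gene, beginning 171 bases before the start, as do 0.0304% of all 32851 windows and no other of the 43 member windows. Gabra4 holds 2 half-sites and an ACAATG, Gabrg1 a half-site and an ACAATG, and Gabra2 a half-site. The half-site is in 46.7% of all windows and 51.2% of member windows, ACAATG in 12.6% and 6.98%, ACAAAG in 18.7% and 4.65%, and the palindrome in 0.0365% and in 0 member windows. G and C made up 38.3% of the Gabrg1 window and at least 58.7% of the other 5 printed windows. A match describes letters only, and the lack of one says nothing of a factor.

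Kainate receptor genes gave no call between the spheres. Of 5, 4 were tested by edgeR and 0 passed, with log2 fold changes of -1.71 (SE 0.89) for Grik3, -0.41 (SE 0.34) for Grik4, -0.26 (SE 0.23) for Grik2 and -0.21 (SE 0.44) for Grik5, which leave room for sizeable differences. At an unadjusted p under 0.05 the number was also 0. Grik1 was too low for the filter and was called by DESeq2, which filters otherwise (log2 fold change 2.34, adjusted p = 0.0167), with 1.01, 2.51, 1.88, 4.57 and 2.22 CPM in MB against 1.05, 0.395, 0.981, 0 and 0 in FB.

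The same 6 lists of serving genes gave 8 higher and 6 lower of 46 tested in MB against FB, shares near the 15.3% higher and 14.3% lower of all genes, with a median log2 fold change of 0.01. Gabbr1 and Gabbr2, whose products pair to form the GABA-B receptor, parted. Gabbr2 had 5.92 ± 1.26 CPM in MB and 0.434 ± 0.678 in FB (log2 fold change 3.65, SE 0.68, adjusted p = 0.000357), and Gabbr1 had 25.8 ± 5.04 CPM in MB and 84.2 ± 7.57 in FB (log2 fold change -1.71, SE 0.13, adjusted p = 6.63e-09). Of the auxiliary subunits 3 of 10 were higher and 0 lower: Cacng5 by 1.03 (SE 0.20, adjusted p = 0.000469), the kainate receptor partner Neto1 by 1.58 (SE 0.26, adjusted p = 8.71e-05) and Gsg1l by 2.62 (SE 0.62, adjusted p = 0.0032).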

How the data were processed

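Captured floor plate and cultured spheres were deposited as separate tables and were analysed apart. Libraries were made by Smart-seq2 with Tn5 tagmentation, per the labels' protocols, without strand or molecular identifiers, so counting errors cover reads and not molecules. Per the submitters' processing notes, the tools were DESeq2 1.34.0, STAR 2.3 and Salmon 1.6.0 and the builds GRCm39 and mm10, with no word on which did what; how reads were counted, and over which annotation, is not given in the sources.

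For the 20 captured libraries the authors deposited a normalized expression score of unnamed unit. As in RPKM, 1 read is worth a fixed amount that varies by gene and library, and on this basis whole reads could be counted back, within 0.02 reads, for 23 of the 38 members. Of 15139 lines, 142 with a repeated symbol (11 symbols) were left out. For the spheres the authors deposited whole-number counts per gene, per the file headers, with 6327198 to 9291311 counts per library. Total depth of the captured libraries is not stated, so no interval was built on it.

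Captured values were tested as log2(value + 1) with limma 3.58.1 in R 4.3.3 (trended prior variance, all 20 libraries in 1 fit, genes listed at both ages), and sphere counts with edgeR 4.0.16 (TMM, default filter, quasi-likelihood test), with Benjamini-Hochberg adjustment over all genes tested and a threshold of 0.05. Both were tested on simulated data. Subunit ratios, with 1 added to each value or count, were compared by exact two-sided permutation tests over libraries, adjusted over 18 tests from 9 of the 12 pairs listed. Coordinates and exon lengths came from GENCODE M21 (GRCm38) and promoter windows from RefSeq. The members and lists were chosen with earlier results of these data known. Values per library are given for members that passed in a comparison and for the 3 with the highest mean in each table; values of other members were added after they were seen. Some members and other genes enter the fits and counts but are not reported here by name. Alternatives were other pseudocounts, filters, scalings and tools (DESeq2 1.42.0 for the spheres), library weights, a replicate block and leaving out each library.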

Additional observations from a re-analysis of the deposited data

Results flagged for a closer look

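In groups of 4 to 10 libraries, a library was marked where its gap to the nearest other library was large for the range of its group by Dixon's 95% critical value. Of 103 groups of libraries over 22 members, 6 were marked, and chance marks about 1 in 20.

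In the captured libraries, Grik5 had 13.1 units in E11 replicate 4 and 8.74 to 9.19 in the others.

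In the spheres, Gabra5 had 1.17 CPM in MB replicate 3 and 1.11 CPM in FB replicate 5, and 0 in every other MB and FB library. Gabrb1 had 3.36 CPM in FB replicate 4 and 0.369 to 0.789 in the other FB libraries. Grin2a had 3.07 CPM in FB replicate 5 and 1.2 to 1.71 in the others. Gabra3 had 0 CPM in FB replicate 1 and 0.763 to 0.984 in the others.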

How the results depend on the processing

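The number of members called stayed within 1.5 times its reported value under the other pseudocounts, filters, tools and weights tried. Leaving out 1 library gave 3 to 4 calls for E13 against E11, 10 to 14 for E18 against E13, 11 to 13 for P70 against E18, 11 to 14 for MB against FB, and 5 to 9 of the subunit ratios. Quantile normalization needs genes listed at all 4 ages and so tested only 7 members. It called 3 of them for E18 against E13 and 6 for P70 against E18, and it took the median of all genes for P70 against E18 to -0.01. Of single-gene results under all alternatives, 765 kept their side of the threshold, 28 passed it newly, 15 lost it and 0 changed direction. Of results for called subunit ratios, 58 kept their side and 22 lost it, among them the sphere ratios under the paired test described next.

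Same-numbered libraries did not deviate together, with correlations of -0.148 to 0.25 over 19 pairs, so the numbers were not read as pairs. With a replicate block the counts of calls were 3, 14, 13 and 13. The paired test of the sphere ratios cannot pass with 5 pairs, so the 0 ratio calls it left decide nothing. It did not retest the captured ratios, which share the adjustment over 18 tests with the sphere ratios. The ratio of Gria2 to Gria1 in P70 against E18 kept its call in all 12 alternatives counted for it, at adjusted p of at most 0.0409. For E13 against E11 the number of all genes called was 2421, and 3811 with only the libraries of both ages or 4873 with library weights. Few reads limit the low members, and DESeq2 tested sphere genes that edgeR's filter left out.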
